A study of Rattus norvegicus with 48 samples.

Results

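miR-128 was followed through small RNA sequencing of rat brain under 3 of the 1063 names in the deposited table: the mature miRNA miR-128-3p and the hairpins mir-128-1 and mir-128-2 that it is cut from. The names were taken from the name column and lines with the same name were added up, so that the 2 lines of miR-128-3p became 1 value per library. Long Evans rats were exposed before birth to ethanol or to saline, by injections into the abdomen of the dam, and were housed after weaning either with littermates (non-enriched) or with unfamiliar rats from untreated dams (socially enriched). At postnatal day 42 the whole amygdala and the ventral striatum were dissected from males and females. RNA of several rats of 1 sex and treatment was pooled, and 3 pools per sex, treatment and region gave 48 libraries, 24 per region and 6 per treatment group and region. The groups are written CN (saline, non-enriched), CS (saline, enriched), EN (ethanol, non-enriched) and ES (ethanol, enriched). All rats were of this strain, and the dams of the saline groups were injected as well. A library was a pool, so the spread between libraries understates that between single rats.

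A miRNA is cut from a hairpin transcript, loaded into an Argonaute protein and guided to messenger RNAs by the bases near its 5′ end, the seed, which lowers the stability and translation of those messages. miR-128 is abundant in neurons of the mammalian brain. In mice it is known to dampen the excitability of neurons, including the striatal neurons that carry the dopamine D1 receptor, and its loss there leads to overactivity and seizures.

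The sequences are those of RefSeq for the rat assembly GRCr8. They are shown because both hairpins hold the same mature sequence, so that reads of miR-128-3p do not tell which hairpin they came from, while the opposite arms differ. In the first line the capitals mark the seed, bases 2 to 8.
miR-128-3p: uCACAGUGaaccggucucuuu
In the hairpins, the capitals mark the 21 bases of miR-128-3p.
mir-128-1: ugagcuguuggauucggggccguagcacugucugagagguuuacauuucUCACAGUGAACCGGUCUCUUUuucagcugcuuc
mir-128-2: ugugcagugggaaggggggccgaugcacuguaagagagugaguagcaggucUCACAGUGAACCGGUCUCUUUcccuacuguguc
In the 5p arms, the capitals again mark bases 2 to 8.
miR-128-1-5p: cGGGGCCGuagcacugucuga
miR-128-2-5p: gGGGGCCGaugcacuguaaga
The hairpin mir-128-1 lies at chr13:42251884-42251965 on the plus strand, within the gene R3hdm1. The hairpin mir-128-2 lies at chr8:120963795-120963878 on the minus strand, within Arpp21, which encodes a cyclic AMP-regulated phosphoprotein of striatal neurons, and also within the span of a long noncoding RNA gene. Next to the mature sequence the hairpins share 2 bases on its 5′ side and 0 bases on its 3′ side. A short read whose ends match the mature sequence therefore fits both hairpins equally.

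Values were normalized read numbers (RPM), scaled by the authors separately within the 612 mature and the 451 precursor names, so that a mature and a precursor value are on different scales and are not compared as levels. The step between low values gave the worth of 1 read and from it a depth of 363141 to 1370413 mature reads per library, with a median of 977844. The depth ranged from 363141 to 1287699 in the amygdala and from 739464 to 1370413 in the ventral striatum. Small RNAs had been selected by size before sequencing, so the values of mir-128-1 and mir-128-2 count short reads that lie on the hairpins and not the hairpin RNA itself.

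miR-128-3p was among the more abundant mature miRNAs in both regions. It ranged from 3708 to 8153 RPM in the amygdala, with a median of 6001 RPM, and from 2609 to 9356 RPM in the ventral striatum, with a median of 4338 RPM. These levels amounted to 0.596% ± 0.134 (SD, n = 24) of the mature RPM in the amygdala and 0.462% ± 0.163 (SD, n = 24) in the ventral striatum. Its rank among the mature names ran from 25 to 37 in the amygdala and from 24 to 47 in the ventral striatum, with medians of 30 and 36. By mean RPM its neighbours were miR-338-3p (6680 RPM) and miR-676 (5902 RPM) in the amygdala, and miR-153-3p (4900 RPM) and miR-300-3p (4561 RPM) in the ventral striatum, and all 4 lay within 1 SD of it. The number of reads behind miR-128-3p was 2307 to 8905 per library, so counting error alone is a coefficient of variation of 1.06% to 2.08%. The variation among libraries was far wider, at 22.4% for the amygdala and 35.2% for the ventral striatum.

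**Figure D1:**
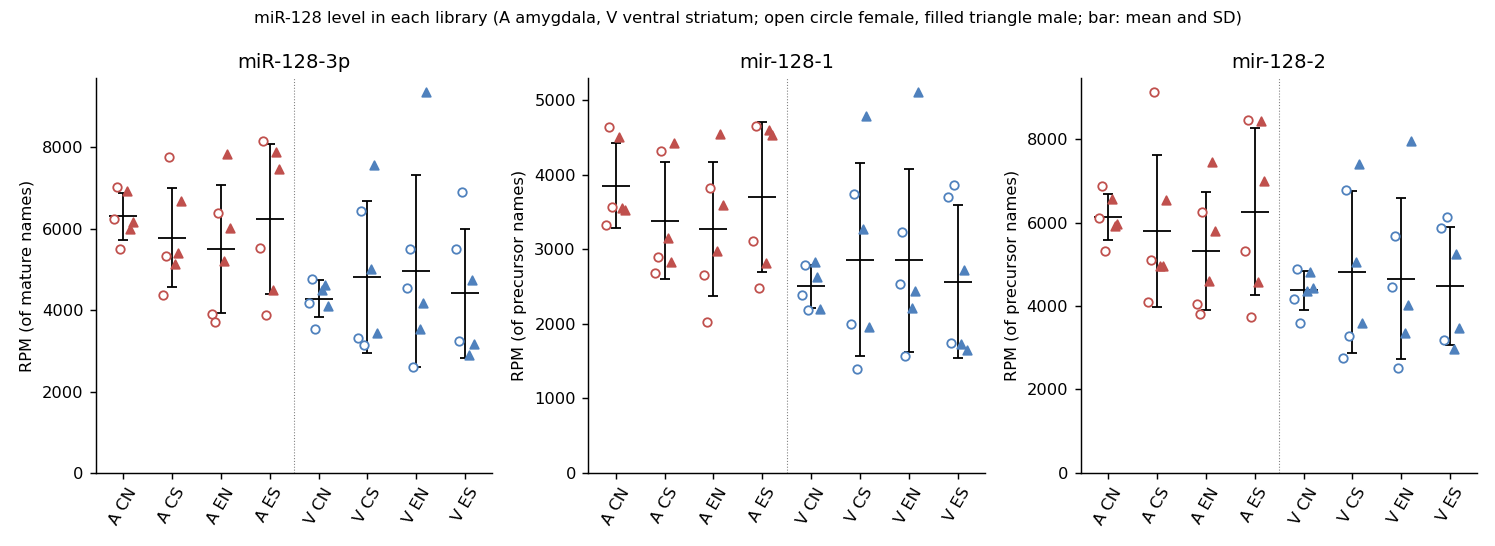
RPM of miR-128-3p (left), mir-128-1 (middle) and mir-128-2 (right) in each of the 48 libraries, by region (A amygdala, V ventral striatum) and treatment group, with the mean and SD of 6 libraries per group. The saline, non-enriched libraries are tightly grouped and apart between the regions, from 5501 to 7034 RPM against 3524 to 4772 RPM of miR-128-3p, while the other groups are wide and overlap.

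The 3 names rose and fell together. Within cells of region, treatment and sex, the correlation over the 48 libraries was 0.96 between miR-128-3p and mir-128-1, 0.98 between miR-128-3p and mir-128-2 and 0.94 between the hairpins. The names share reads, since a read of the mature miRNA also lies on a hairpin, so these values describe 1 signal counted in several ways and the 3 names are not independent. The hairpins together held 1.82 ± 0.0850 (SD, n = 48) reads for each read of the miR-128 mature names, between 1.64 and 2.00 in every library. How reads that lie on a hairpin but not on a mature annotation were counted is not given in the sources used here.

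The table does not say which locus each of the 2 lines of miR-128-3p stands for. The lines did not share its reads equally, and the division fell into 2 kinds of library. In 24 libraries the first line held 24.6% to 28.4% of the miR-128-3p RPM (mean 26.3% ± 0.888, SD), and in the other 24 it held 33.6% to 37.1% (mean 35.5% ± 1.18, SD). Counting error alone would give an SD of 0.711 and 0.702 percentage points if the reads were independent. The SD lay above it in both kinds, and further above it in the latter. The kinds were set without miR-128, from 21 other mature names with 2 lines. Of these same names 16 did not overlap between the kinds, a count that is no separate support for the division. The kinds are called set 1 and set 2 here, and the labels name no batch that matches them. Set 1 held 1 and set 2 held 2 of the 3 libraries of each sex and treatment in the amygdala, and the reverse in the ventral striatum, so the sets are balanced over treatment and sex but not over region, with 8 and 16 amygdala libraries against 16 and 8 from the ventral striatum. The 8 set 1 libraries of the amygdala were also the shallowest of the series, at 363141 to 622111 mature reads. On the log2 scale, the first over the other line was -1.48 ± 0.035 (SD, n = 8) in the amygdala and -1.49 ± 0.078 (SD, n = 16) in the ventral striatum within set 1 (two-sided permutation test, p = 0.933). Within set 2 it was -0.89 ± 0.070 (SD, n = 16) and -0.81 ± 0.053 (SD, n = 8), a difference of 0.080 (permutation test, p = 0.00978). The sum of the lines, which is used below, does not depend on how reads were divided between them.

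The ratio of the hairpins moved with the sets in the same way. On the log2 scale, mir-128-1 over mir-128-2 was -0.72 ± 0.13 (SD, n = 24) in the amygdala and -0.78 ± 0.17 (SD, n = 24) in the ventral striatum, a difference of -0.063 (two-sided permutation test, p = 0.165). Within set 1 the ratio was -0.86 ± 0.11 (SD, n = 8) in the amygdala and -0.85 ± 0.16 (SD, n = 16) in the ventral striatum (permutation test, p = 0.927). Within set 2 it was -0.65 ± 0.082 (SD, n = 16) in the amygdala and -0.65 ± 0.096 (SD, n = 8) in the ventral striatum (permutation test, p = 0.859). The hairpin values include reads that fit both hairpins and their ratio moves with the sets, so it does not measure the use of the hairpins. mir-128-2 held more reads than mir-128-1 in every library.

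**Figure D2:**
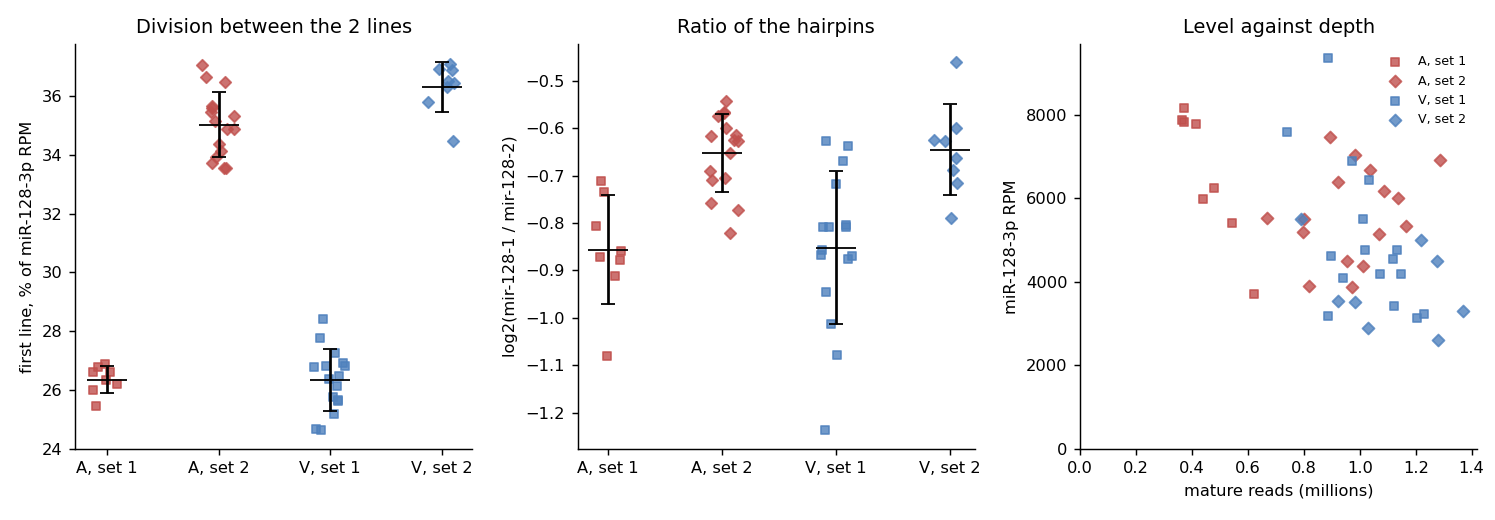
Left, share of the miR-128-3p RPM on its first line; middle, log2 ratio of mir-128-1 to mir-128-2; right, miR-128-3p RPM against the number of mature reads, each point 1 library, by region (A amygdala, V ventral striatum) and library set, bars giving mean and SD. The mean share is 26.3% in both regions in set 1, and in set 2 it is 35.03% for amygdala and 36.3% for ventral striatum libraries, and the 8 set 1 libraries of the amygdala are the shallowest.

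The 5p arms, which differ between the hairpins, were far less abundant than the 3p arm. miR-128-1-5p had 65.4 ± 18.6 RPM in the amygdala and 50.6 ± 21.02 RPM in the ventral striatum (SD, n = 24 each). miR-128-2-5p had 2.50 ± 2.01 and 1.66 ± 1.33 RPM (SD, n = 24 each), and 44 of the 48 libraries held no more than 3 reads of it, the floor taken here for a single library. Over all libraries there were 2472 reads of miR-128-1-5p and 85 of miR-128-2-5p, a ratio of 29.1. The ratio was not tested between the regions. The 3p arm made up 98.4% to 99.4% of the reads of the miR-128 mature names.

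The first question is whether miR-128 differs between the regions. All 3 names were lower in the ventral striatum. miR-128-3p had 5955 ± 1337 RPM in the amygdala and 4615 ± 1626 RPM in the ventral striatum (SD, n = 24 each), a log2 difference of -0.41 (SE 0.12, limma adjusted p = 0.0133). mir-128-1 had 3551 ± 811 and 2695 ± 983 RPM, a difference of -0.45 (SE 0.13, limma adjusted p = 0.00923). mir-128-2 had 5876 ± 1490 and 4581 ± 1462 RPM, a difference of -0.38 (SE 0.13, limma adjusted p = 0.0244). The 95% interval for miR-128-3p ran from -0.66 to -0.15. The ranges overlapped, but 20 of 24 ventral striatum libraries lay under the amygdala median and 21 of 24 amygdala libraries lay above the ventral striatum median, and the ventral striatum mean was lower in all 8 combinations of sex and treatment. Turned back from the log2(RPM + 1) scale, miR-128-3p fell by 24.5%, mir-128-1 fell by 26.6% and mir-128-2 fell by 23.3% from amygdala to ventral striatum. A two-sided permutation test of mean RPM gave p = 0.00310 for miR-128-3p, 0.00198 for mir-128-1 and 0.00380 for mir-128-2. Per the study's methods both regions came from the same rats, but the labels do not say which pools share rats, and these tests treat all 48 libraries as independent. Each odd library number and the next even one were a library of either region with the same sex and treatment. With that pair as a random block the differences were -0.41, -0.45 and -0.38 in the order above (limma adjusted p = 0.0107, 0.00754 and 0.0199).

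These 3 calls stand beside many others. Of the 942 names tested between the regions, 278 or 29.5% were called, 198 or 21% higher and 80 or 8.49% lower in the ventral striatum, and by size of decrease mir-128-1, miR-128-3p and mir-128-2 took places 54, 60 and 69. Scaling by median ratios turned the split into 119 higher and 109 lower, and the miR-128 names were lower with it too, with differences of -0.47, -0.52 and -0.46 in the order miR-128-3p, mir-128-1 and mir-128-2. In tissue, fewer cells that hold miR-128 and less miR-128 per cell cannot be told apart.

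The region call did not hold once depth was taken into the fit. With depth as a covariate the differences were -0.25 for miR-128-3p, -0.33 for mir-128-1 and -0.19 for mir-128-2, and none passed (limma adjusted p = 0.191, 0.107 and 0.346). As a description across libraries, the correlation of log2 RPM with log2 reads was -0.95 in the 8 set 1 libraries of the amygdala and 0.24 in its 16 set 2 libraries. In the ventral striatum it was -0.58 in the 16 set 1 and -0.34 in the 8 set 2 libraries. Within set 2, where the depths of the regions overlap, miR-128-3p had 5623 ± 1113 RPM in the amygdala (n = 16) and 3862 ± 1030 RPM in the ventral striatum (n = 8), a log2 difference of -0.56 (SE 0.13, limma adjusted p = 0.0338). Within set 1 the values were 6620 ± 1569 RPM (n = 8) and 4992 ± 1762 RPM (n = 16), a difference of -0.44 (SE 0.24, limma adjusted p = 0.227). The permutation test of mean RPM, not adjusted over names, gave p = 0.0418 in set 1 and 0.00160 in set 2. That permutation test gave p = 0.0602 and 0.00456 for mir-128-1, and 0.0201 and 0.00366 for mir-128-2, in the same order. With the set as a term over all libraries the difference of miR-128-3p was -0.50 (limma adjusted p = 0.00231). What part depth has in the difference was not tested further.

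**Figure D3:**
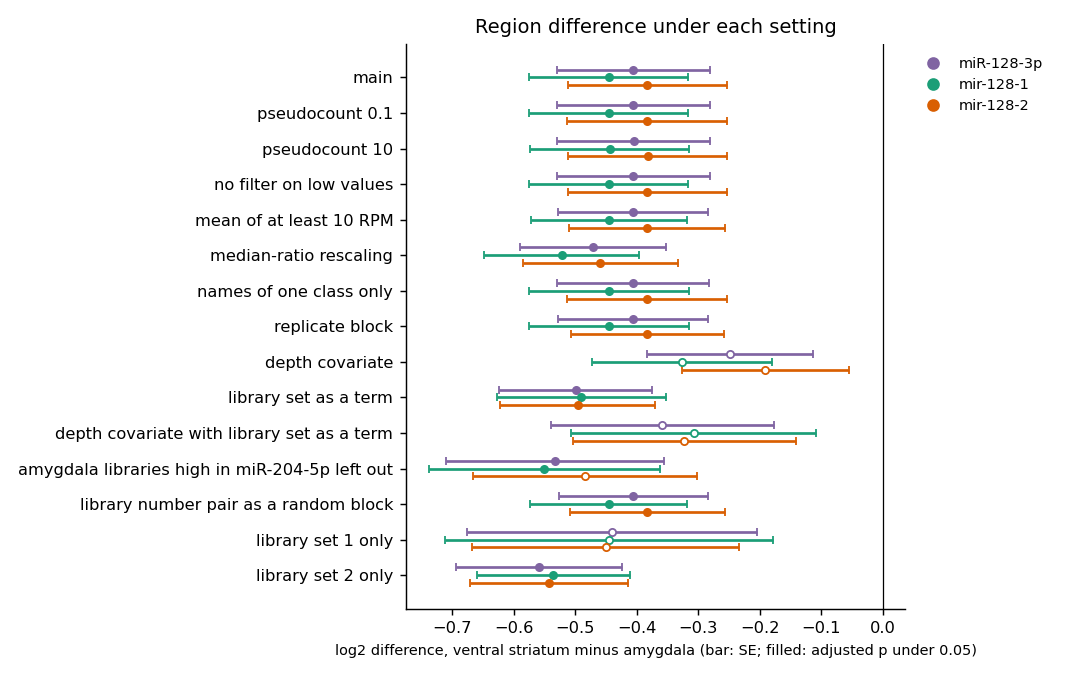
Log2 difference of ventral striatum minus amygdala for miR-128-3p, mir-128-1 and mir-128-2 under each processing setting, with SE, filled where the limma adjusted p is under 0.05. All values are below 0, from -0.19 to -0.56, and the points are open with depth as a covariate, alone or with the set, and within set 1, and for mir-128-2 without the amygdala libraries high in miR-204-5p.

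The regions did not overlap in the rats that had neither ethanol nor enrichment. In CN, miR-128-3p ranged from 5501 to 7034 RPM in the amygdala (median 6200) and from 3524 to 4772 RPM in the ventral striatum (median 4338), with no overlap. mir-128-1 ranged from 3329 to 4645 and from 2189 to 2828 RPM, and mir-128-2 from 5309 to 6886 and from 3593 to 4894 RPM, again with no overlap. All ventral striatum libraries lay under all amygdala libraries for these 3 names in CN, where 1.91% of the 942 names did so, and for 0 of the 3 in CS, EN and ES, where the share of names was 0.318%, 0.637% and 0.955%. In CS miR-128-3p ranged from 4369 to 7767 RPM in the amygdala (median 5367) and from 3133 to 7576 RPM in the ventral striatum (median 4217). In EN it ranged from 3708 to 7828 RPM (median 5607) and from 2609 to 9356 RPM (median 4357), and in ES from 3869 to 8153 RPM (median 6493) and from 2903 to 6893 RPM (median 3993). The SD of miR-128-3p was 579 and 450 RPM in CN against 1224 to 2364 RPM in the other groups, a description that was not tested. The mean of miR-128-3p was higher in the amygdala by 2025 RPM in CN, 965 in CS, 551 in EN and 1820 in ES. Change of the region difference was tested with ethanol and with enrichment, each averaged over the other, and neither passed. A pattern like that of these means largely averages out in such tests, and the joint term of region, ethanol and enrichment was not fitted. For miR-128-3p the region difference moved by 0.074 (SE 0.25, 95% interval -0.43 to 0.58) between ethanol and saline and by -0.030 (SE 0.25, 95% interval -0.54 to 0.48) between enriched and non-enriched rats (limma adjusted p = 1 for both). Called were 0.212% and 0% of the names by adjusted p in these interactions and 3.29% and 2.55% at an unadjusted p under 0.05, with no miR-128 name among them.

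The order of the 8 groups by mean miR-128-3p was amygdala CN (6306 RPM), ES (6230 RPM), CS (5781 RPM) and EN (5505 RPM), followed by ventral striatum EN (4954 RPM), CS (4816 RPM), ES (4411 RPM) and CN (4281 RPM). Every step between neighbours was smaller than the SD of at least 1 of the groups beside it. The CN rats thus had the highest group mean of miR-128-3p in the amygdala and the lowest in the ventral striatum. For mir-128-2 the amygdala mean of ES (6256.5 RPM) lay above that of CN (6123.5 RPM). Both hairpins also had all 4 amygdala groups above all 4 ventral striatum groups.

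The other miR-128 names had differences in the same direction, and these were not examined with depth as a covariate. miR-128-1-5p was lower in the ventral striatum, with a log2 difference of -0.41 (SE 0.15, limma adjusted p = 0.0328). The permutation test of its mean RPM gave p = 0.0131. Within set 1 it had 69.1 RPM in the amygdala and 51.8 RPM in the ventral striatum (p = 0.0904), and within set 2 63.5 and 48.1 RPM (p = 0.0652, permutation tests), neither of which passed. miR-128-2-5p, near the floor, had a difference of -0.34 (SE 0.26, limma adjusted p = 0.344), which was not detectable at this depth. Within cells, miR-128-1-5p had correlations of 0.74 to 0.80 with the 3 names.

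Sequences that hold bases 2 to 7 of miR-128-3p near their own 5′ end may share some of its targets. Of the 612 mature names 564 had a RefSeq sequence, and 4 others held these bases, in capitals, within their first 9 bases, none of them with the same bases 2 to 8.
miR-27a-3p: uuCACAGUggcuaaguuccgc
miR-27b-3p: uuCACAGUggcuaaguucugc
miR-672-3p: acaCACAGUcgccaucuucga
miR-216a-3p: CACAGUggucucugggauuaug
miR-27a-3p, a miRNA also known from vessels and fat cells, was lower in the ventral striatum like miR-128-3p, at 423 ± 58.1 RPM in the amygdala and 328 ± 46.4 RPM in the ventral striatum (SD, n = 24 each), a log2 difference of -0.37 (SE 0.059, limma adjusted p = 1.13e-05). miR-27b-3p, which lies on another chromosomal cluster and is the most abundant of the 5, had 29516 ± 3413 and 29168 ± 1803 RPM, a difference of -0.011 (SE 0.039, 95% interval -0.090 to 0.068, limma adjusted p = 0.881). miR-672-3p had 15.2 ± 6.99 and 14.1 ± 4.81 RPM (limma adjusted p = 0.861), and miR-216a-3p stood under 1 RPM on average in both regions.

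**Figure D4:**
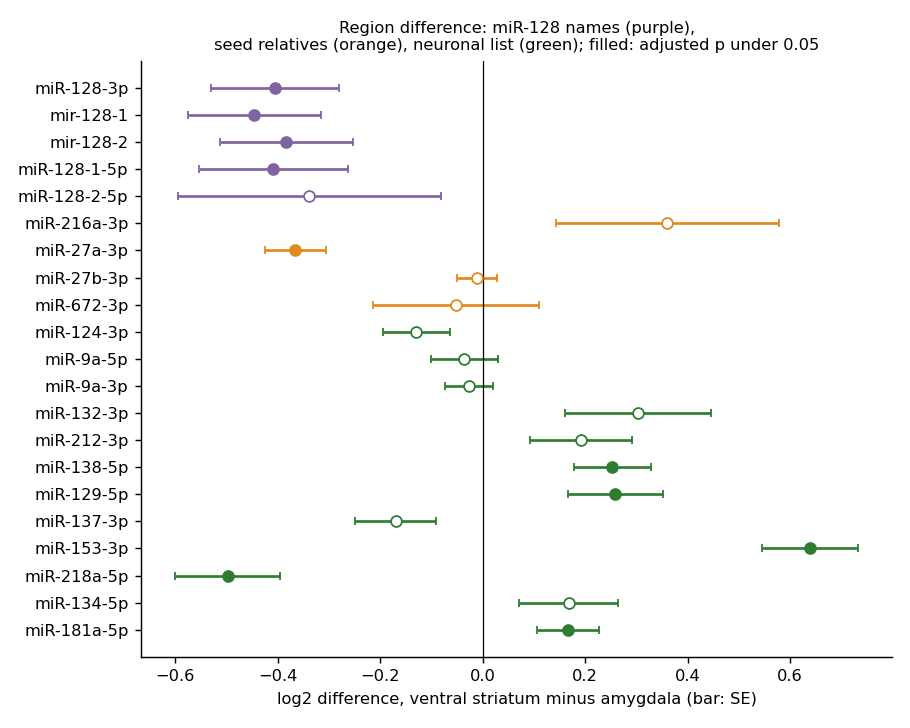
Log2 difference of ventral striatum minus amygdala, with SE, for the miR-128 names (purple), the names that share its seed bases (orange) and a list of neuronal miRNAs (green), filled where the limma adjusted p is under 0.05. The miR-128 names lie between -0.34 and -0.45, while the neuronal names spread from -0.50 to 0.64.

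Other miRNAs known from neurons did not share one direction. Of a list of 12, 4 were higher and 1 was lower in the ventral striatum, beside 21% and 8.49% of all 942 names, with a median of 0.17 against 0.082. With median ratios 1 of the 12 was higher, miR-153-3p, and 3 were lower, among them miR-218a-5p and miR-124-3p, so the counts depend on the scaling and nothing particular to the list is read from them. miR-153-3p was higher there, at 3198 ± 786 RPM in the amygdala and 4900 ± 899 RPM in the ventral striatum, a difference of 0.64 (limma adjusted p = 2.90e-06). miR-218a-5p, known from motor and midbrain neurons, was lower, at 2087 ± 429 and 1500 ± 406 RPM, a difference of -0.50 (limma adjusted p = 0.000308). miR-124-3p, the most typical neuronal miRNA, had 2421 ± 407 and 2201 ± 306 RPM (limma adjusted p = 0.133).

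Markers of other cells were read against the 29.5% of all names called between the regions. The choroid plexus markers miR-204-5p and miR-211-5p were both lower in the ventral striatum, their sum ranging from 3120 to 122541 RPM in the amygdala and from 3827 to 6987 RPM in the ventral striatum. In 13 amygdala libraries miR-204-5p was above its highest ventral striatum value, and these held 5522 ± 1430 RPM of miR-128-3p against 6468 ± 1059 RPM in the other 11. Without those 13 the region difference was -0.53 for miR-128-3p (SE 0.18, limma adjusted p = 0.0437), -0.55 for mir-128-1 (limma adjusted p = 0.0492) and -0.48 for mir-128-2 (limma adjusted p = 0.0733), larger than with them. The oligodendrocyte markers miR-219a-5p and miR-338-3p were both higher in the ventral striatum, with a sum of 3989 to 13455 RPM in the amygdala and 5174 to 14115 RPM in the ventral striatum. With median ratios only miR-338-3p of them was called. Of the vessel markers 1 of 3 was called, miR-145-5p, with a difference of 0.26 (limma adjusted p = 0.0488), and 0 of 3 with median ratios, and their sum ranged from 24290 to 36416 RPM and from 23628 to 64154 RPM. The red blood cell markers, 0 of 2 called, summed to at most 44.9 RPM, and of the 4 immune cell markers 3 were tested and 0 called (1 with median ratios, miR-142-5p, lower), with sums of 478 to 851 RPM and 445 to 757 RPM. The part of these cells in the values of miR-128 was not tested beyond this.

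The next question was whether prenatal ethanol or social enrichment moved miR-128 within a region. By limma, 0 of the 3 names were called in any of the 8 contrasts, and 0% of all names were called in each. At an unadjusted p under 0.05 there were also 0 of the 3 names. For all names, the share at that level in the amygdala was 4.51% for ethanol in non-enriched rats, 3.85% for ethanol in enriched rats, and 2.64% for enrichment, both in saline and in ethanol rats. In the ventral striatum it was 2.04%, 2.25%, 3.86% and 1.82% in the same order.

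In the amygdala, ethanol went with lower mean levels in non-enriched rats, within the spread. miR-128-3p was 6306 ± 579 RPM in CN and 5505 ± 1569 RPM in EN (SD, n = 6 each), and the EN range of 3708 to 7828 RPM enclosed the CN range. The log2 difference was -0.24 (SE 0.20, 95% interval -0.66 to 0.18, limma adjusted p = 0.856), and the exact permutation test of mean RPM gave p = 0.271. mir-128-1 differed by -0.27 (95% interval -0.70 to 0.15) and mir-128-2 by -0.24 (95% interval -0.71 to 0.23). The median over all names in this contrast was -0.083, and with median ratios the difference of miR-128-3p was -0.13. The 2 lowest EN libraries, both female, had 3708 and 3902 RPM of miR-128-3p. The 2 amygdala libraries highest in miR-204-5p were also EN, and without them the difference of miR-128-3p was -0.16 (limma adjusted p = 1).

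In enriched rats the amygdala means lay in the other order. miR-128-3p was 5781 ± 1224 RPM in CS and 6230 ± 1846 RPM in ES (SD, n = 6 each), a difference of 0.076 (SE 0.20, 95% interval -0.35 to 0.50, exact permutation p = 0.619). Enrichment gave -0.15 (SE 0.20, 95% interval -0.57 to 0.28, exact permutation p = 0.357) in saline rats and 0.17 (SE 0.20, 95% interval -0.25 to 0.59, exact permutation p = 0.468) in ethanol rats. The interaction, the ethanol difference in enriched minus that in non-enriched rats, was 0.32 for miR-128-3p (SE 0.28, 95% interval -0.28 to 0.92), 0.39 for mir-128-1 and 0.33 for mir-128-2, and none passed (limma adjusted p = 1). For all names, 0% passed by adjusted p and 3.85% at an unadjusted p under 0.05.

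In the ventral striatum the 3 names likewise passed in no contrast. Over the 4 contrasts the 3 names differed by -0.15 to 0.099, and the 95% intervals reached from -0.78 to 0.73. miR-128-3p was 4281 ± 450 RPM in CN, 4954 ± 2364 RPM in EN, 4816 ± 1862 RPM in CS and 4411 ± 1592 RPM in ES (SD, n = 6 each). Exact permutation tests gave p = 0.656 and 0.680 for ethanol in non-enriched and enriched rats, and p = 0.513 and 0.677 for enrichment in saline and ethanol rats. The highest value of the series, 9356 RPM, was that of the third male EN library of the ventral striatum, against a median of 4357 RPM in its group. The interaction was -0.21 for miR-128-3p (SE 0.40, limma adjusted p = 1), and in it 2.57% of all names had an unadjusted p under 0.05. These intervals leave room for changes in either direction larger than the region difference, so the data do not show that miR-128 was unaffected.

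**Figure D5:**
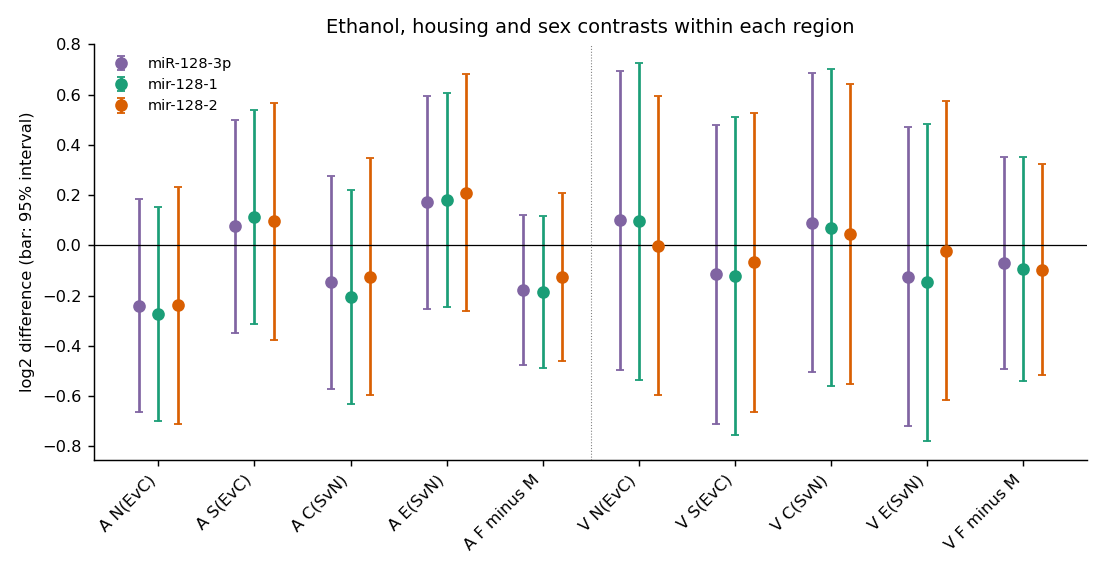
Log2 differences of miR-128-3p, mir-128-1 and mir-128-2 for ethanol against saline in non-enriched, N(EvC), and enriched rats, S(EvC), for enrichment in saline, C(SvN), and ethanol rats, E(SvN), and for females minus males, in the amygdala (A) and ventral striatum (V), with 95% intervals. Every interval includes 0, and the 4 treatment values of the ventral striatum lie between -0.15 and 0.099.

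Between the sexes no difference was detected. miR-128-3p had 5647 ± 1517 RPM in females and 6263 ± 1108 RPM in males of the amygdala (SD, n = 12 each), a log2 difference of -0.18 (SE 0.14, limma adjusted p = 0.988) and a permutation p of 0.264. In the ventral striatum it had 4471 ± 1385 and 4760 ± 1888 RPM (SD, n = 12 each), a difference of -0.069 (SE 0.20, limma adjusted p = 1) and a permutation p of 0.686. The female mean was lower for all 3 names in both regions, with differences of -0.069 to -0.19, and the p-values did not pass for any. Called by adjusted p were 0% of all names in each region, and at an unadjusted p under 0.05 these were 4.18% for the amygdala and 2.89% for the ventral striatum.

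Some other miRNAs varied with miR-128 from library to library. Over the deviations of the 48 libraries from the means of their cells, the mature names most like miR-128-3p among 306 with a mean of at least 10 RPM were let-7a-5p (r = 0.85), miR-221-3p (r = 0.82) and miR-132-5p (r = 0.80). Over the libraries as they are, the closest were miR-488-3p (r = 0.81), its own partner miR-128-1-5p (r = 0.78) and miR-221-3p (r = 0.76). Among 282 precursor names each miR-128 hairpin was most like the other. Within cells mir-128-1 was next most like mir-221 (r = 0.82) and mir-30d (r = 0.81), and mir-128-2 was next most like mir-218a-2 (r = 0.83) and mir-30d (r = 0.83). As they are, mir-128-1 was next most like mir-221 (r = 0.81) and mir-218a-2 (r = 0.79), and mir-128-2 was next most like mir-218a-2 (r = 0.84) and mir-221 (r = 0.80). These libraries share depth, scaling and library set, so the correlations are a description.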

How the data were processed

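Small RNA was sequenced from 48 pools of rat brain RNA. Per the study's methods, reads were trimmed for quality, aligned with Bowtie to Rn5 and quantified in Partek Flow against miRBase; how reads of several loci were divided is not given in the sources used here. The authors deposited a table of signal values described as RPM, with mature names and precursor names scaled apart to 1000000 per library. The miR-128 names and all lists were chosen with earlier results of these data known.

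Lines with a name in common were added up (122 lines of 56 names). Names above 0 in at least 6 libraries of either region (for the regions) or of the region tested were fitted as log2(RPM + 1) by limma 3.58.1 in R 4.3.3, on the means of 16 cells for the regions and of 8 cells per region for treatment and sex, two-sided, with Benjamini-Hochberg adjustment over all names tested and a threshold of 0.05. Mean RPM was compared by permutation, exact over 924 divisions for 6 against 6 (smallest p 0.00216) and with 100000 resamples otherwise. The fit was tested on simulated data with independent noise for each name and library. Such data hold no effect of depth or library set, so that test does not bear on either. Low mature values came out as whole reads, within 0.05 reads, for 89.6% to 96.6% and precursor values for 72.7% to 78.6%, so no count test was used. P-values measure the spread between pools, and the 3-read floor reflects counting error alone. Named were the miR-128 names, those with its seed bases, up to 4 of each marker list, the 3 names most like each member and its neighbours in rank. Library sets, the libraries left out for miR-204-5p and the marker counts with median ratios were chosen after seeing the data. Replicate numbers did not pair libraries.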

Additional observations from a re-analysis of the deposited data

How the results depend on the processing

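The lower level in the ventral striatum kept its direction under every setting tried. For miR-128-3p, mir-128-1 and mir-128-2 it lost its call with depth as a covariate (-0.25, -0.33, -0.19), with depth and library set (-0.36, -0.31, -0.32; limma adjusted p = 0.219, 0.344, 0.274) and in set 1 alone (-0.44, -0.45, -0.45; limma adjusted p = 0.227, 0.275, 0.182). Only mir-128-2 lost it without the amygdala libraries high in miR-204-5p (-0.48). Leaving out 1 library at a time gave -0.46 to -0.37, -0.49 to -0.40 and -0.43 to -0.34, with every call kept. A replicate block left the differences at -0.41, -0.45 and -0.38 and changed no call of a miR-128 name; deviations of same-numbered libraries correlated with a median of 0.0032 for amygdala and -0.0021 for ventral striatum pairs. Pairs of an odd library number and the next even one had correlations over 0.1 in 11 of 24 (median 0.046). Libraries from opposite regions with the same sex and treatment but other numbers had them in 17 of 48 (median 0.010). With the odd and even pairs as a random block 286 names were called.

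The 278 names called between the regions became 104 with depth and set (63 higher, 41 lower), 163 without the libraries high in miR-204-5p (109 higher), 182 in set 1 (43 lower) and 90 in set 2 (49 higher, 41 lower), 126 higher with depth and 119 higher with median ratios, and 249 to 299 with 1 library left out.

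Differences that were not called changed sign under some settings, and none passed the threshold. The ratio of the hairpins between the regions was 0.0046 in set 1 and 0.0067 in set 2. The sex difference in the ventral striatum turned to 0.098, 0.077 and 0.089 with depth and to 0.077, 0.071 and 0.065 with depth and set. Ethanol in enriched rats of the amygdala turned to -0.070, -0.064 and -0.071 with depth and set, and to -0.00092 for mir-128-2 with depth. Ethanol in non-enriched rats of the ventral striatum was 282 RPM for mir-128-2 on unlogged RPM. The change of the region difference with enrichment turned to 0.0098, 0.019 and 0.015 with median ratios, to 0.36, 0.42 and 0.36 in set 2, and for mir-128-1 to 55.1 RPM unlogged and 0.034 without the miR-204-5p libraries. Its change with ethanol turned to -0.027, -0.035 and -0.0088 without those libraries, to -0.051 and -0.041 for miR-128-3p and mir-128-1 in set 2, to -0.025 and -0.058 for mir-128-1 and mir-128-2 in set 1, and to -0.019 for mir-128-2 with median ratios. With 1 library left out, ethanol in enriched rats of the amygdala ran -0.060 to 0.21 (miR-128-3p), -0.012 to 0.23 (mir-128-1), -0.058 to 0.26 (mir-128-2). Enrichment in saline rats of the ventral striatum ran -0.077 to 0.23 (miR-128-3p), -0.12 to 0.24 (mir-128-1), -0.15 to 0.18 (mir-128-2). Enrichment in ethanol rats there ran -0.28 to 0.089 (miR-128-3p), -0.29 to 0.042 (mir-128-1), -0.19 to 0.16 (mir-128-2). Ethanol in non-enriched rats there ran -0.11 to 0.26 (miR-128-3p), -0.094 to 0.24 (mir-128-1), -0.19 to 0.17 (mir-128-2). Ethanol in enriched rats there ran -0.26 to 0.052 (miR-128-3p), -0.29 to 0.072 (mir-128-1), -0.20 to 0.13 (mir-128-2). Sex there ran -0.15 to 0.038 (miR-128-3p). The interaction there ran -0.23 to 0.13 (mir-128-2). The change of the region difference with enrichment ran -0.11 to 0.077 (miR-128-3p), -0.12 to 0.069 (mir-128-1), -0.13 to 0.063 (mir-128-2). Its change with ethanol ran -0.032 to 0.16 (miR-128-3p), -0.028 to 0.16 (mir-128-1), -0.055 to 0.14 (mir-128-2). The cause of these changes was not tested. Of 1488 values with 1 library left out, 104 changed sign, all of uncalled differences.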
